A study of Betula luminifera with 4 samples.

Results

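The microRNA families miR156 and miR172 of Betula luminifera, a birch tree, are described here across 4 small RNA libraries. All rows of the deposited table named miR156 or miR172 were taken, every arm and length form included, and each distinct mature sequence was counted once. This gave 16 of the 215 distinct sequences of the table, 11 of miR156 from 15 rows and 5 of miR172 from 6 rows. The plants were of 1 clone, G49#, grown in tissue culture before being potted in sand. Root LP and shoot LP come from plants watered with medium that held no KH2PO4, its only phosphate source, with K2SO4 added to adjust the potassium, and root CK and shoot CK from plants watered with 1.25 mM KH2PO4. All plants had first received normal phosphate and then deionized water to deplete it, and 54 of them were split evenly over both treatments as randomized blocks of 3 replicates, which the labels do not tie to libraries. Each group is 1 library, the shoot libraries hold pooled stem and leaf RNA, and the number of plants behind a library is not stated. Every difference below is therefore unreplicated and carries no p-value. The 95% intervals in parentheses cover counting error only, and PCR can turn 1 molecule into several reads. In such bulk RNA, fewer cells of a type and less RNA per cell cannot be told apart, and the table holds miRNAs only, so the labelled tissues could not be checked against marker genes.

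In flowering plants miR156 is abundant in young shoots and represses SPL transcription factors, which promote the adult phase and flowering. As a shoot ages miR156 declines, the SPL factors accumulate, and in Arabidopsis an SPL factor activates genes of miR172, which in turn represses AP2-like transcription factors that hold back flowering. The 2 families thus mark opposite ends of the change from juvenile to adult growth. Each is cut from a hairpin precursor whose other strand, the passenger, is usually degraded. The guide strand of miR156 lies on the 5′ arm and that of miR172 on the 3′ arm.

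The most abundant sequences, and those on which the ratios between families, arms and length forms turn, are printed here 5′ to 3′ as the table gives them, with T for U and the seed, bases 2 to 8, in capitals.
miR156g: tTGACAGAagatagagagcac
miR156a/b/c: tGACAGAAgagagtgagcac
miR156i: tTGACAGAagatagagagcacca
miR156j-3p: gCTCTCTAtgcttctgtcatc
miR156a-3p: tGCTCACTtctctttctgtcagc
miR156b-3p: gCTTACTCtctatctgtcatc
miR172d: aGAATCTTgatgatgctgctt
miR172a: gGAATCTTgatgatgctgcag
miR172f: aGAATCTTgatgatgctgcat
miR172e-5p: gCAGCATCatcaagattcaca
miR156g is the 21-nt form also known from Arabidopsis as miR157, and miR156a/b/c is the 20-nt form, which starts 1 base later, so their seeds are offset by 1 base. Counted from 1 at the 5′ end of miR156g, with the base of miR156g first, miR156a/b/c differs by T12G and A15T. The seed TGACAGA was shared by 6 sequences, miR156g, miR156d (T12G), miR156e (T12A), miR156f (T1A), miR156l (G18A) and miR156i, which has 2 more bases at its 3′ end. miR156k begins with 1 extra base and differs by T1C. The seed GAATCTT was shared by the 4 miR172 sequences that are not named 5p, which differ from miR172d only at their ends (miR172a by A1G, T20A and T21G, miR172f by T20A). miR172b/c carries the same T20A and lacks the last base. The names with 3p in miR156 and with 5p in miR172 mark the arm opposite the guide. The deposited arm labels differ for some guide forms. They list miR172a and miR172b/c on the 5′ arm and miR156d and miR156i on the 3′ arm. Arms are taken from the names here.

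Levels are the authors' normalized values, each raw column times 1 constant per library. The raw reads of the 215 sequences sum to 101816 in root LP, 308667 in root CK, 723599 in shoot LP and 1015833 in shoot CK, totals of the table and not of the whole libraries. miR156 had 18649 reads in root LP, 47506 in root CK, 91647 in shoot LP and 77428 in shoot CK, and miR172 had 59.7, 153.7, 228.8 and 1061 reads in the same libraries, so miR172 is the less precise family and root LP its least precise library. Fractional raw values, as shared reads give, occurred in 12 of the 16 members. A sequence is called higher or lower here when its log2 ratio, taken after adding 1 to both values, reaches 2-fold and at least 1 of both values is 10 or more.

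**Figure D1:**
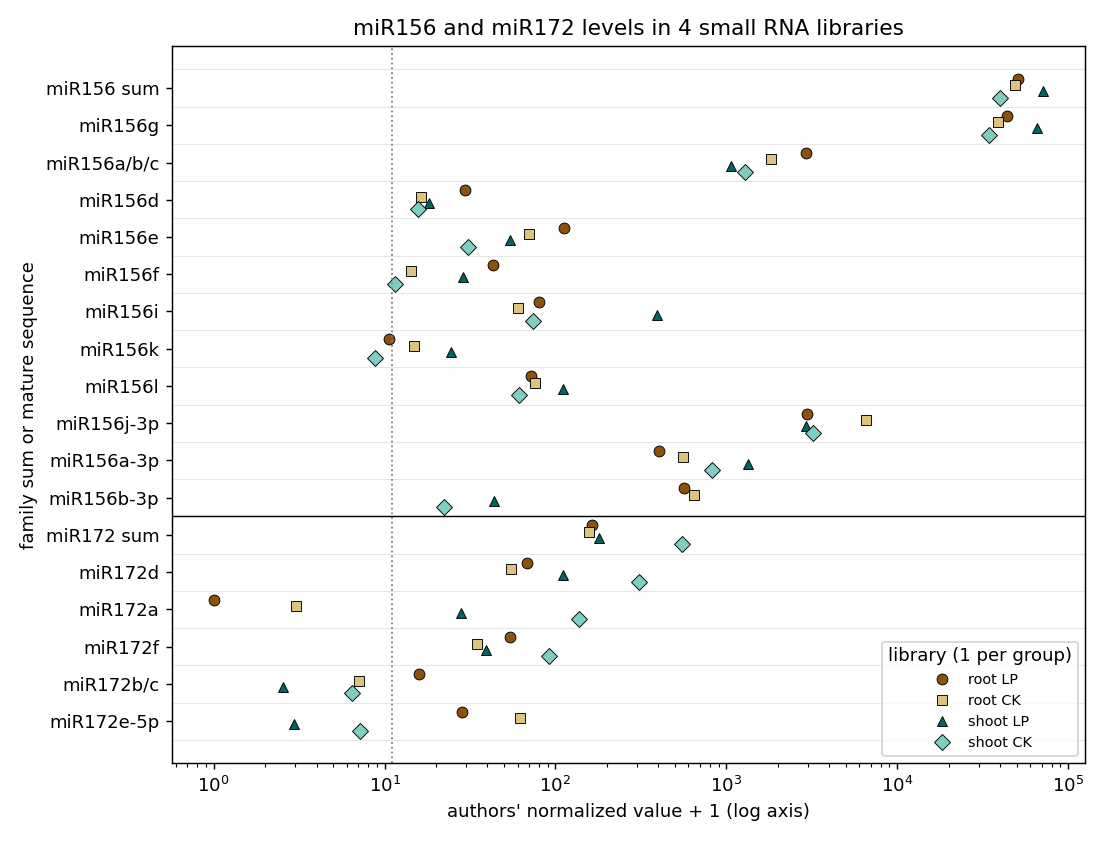
Normalized value plus 1 (horizontal, log axis) of both family sums and all 16 sequences in the 4 libraries, 1 point per library; the dotted line marks a value of 10. miR172d and the miR172 sum have their highest value in shoot CK, miR156g has its highest in shoot LP, and miR156b-3p lies at 562 and 643 in the root libraries and at 42.9 and 21.2 in the shoot libraries.

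miR156 was among the most abundant families and miR172 among the less abundant ones. The miR156 sum stood at 50906 in root LP, 48541 in root CK, 71499 in shoot LP and 40005 in shoot CK. It took 18.3% of the table's reads in root LP (18.1% to 18.6%, exact binomial), 15.4% in root CK (15.3% to 15.5%), 12.7% in shoot LP (12.6% to 12.7%) and 7.62% in shoot CK (7.57% to 7.67%). That placed it at rank 2 of 56 families in root LP, root CK and shoot LP and at rank 4 in shoot CK. The miR172 sum stood at 162.9 in root LP, 157.0 in root CK, 178.5 in shoot LP and 548.0 in shoot CK. It ranked between 23 and 28 of the 56 families, highest in shoot CK, where it took 0.104% of the reads (0.0983% to 0.111%). By these values shoot CK holds the lowest miR156 and the highest miR172 of the 4 libraries, while the other 3 miR172 sums lie close together. As shares of the table's reads those were 0.0586% in root LP, 0.0498% in root CK and 0.0316% in shoot LP.

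The ratio of both families within a library does not depend on how libraries are scaled to each other. There were 313 miR156 reads per miR172 read in root LP (241 to 407) and 309 in root CK (263 to 364). In shoots there were 400.5 in shoot LP (352 to 458) and 73.0 in shoot CK (68.7 to 77.6). Shoot CK thus stands apart from the other 3 libraries, whose intervals overlap one another. The LP ratio was 5.49 times the CK ratio in shoots and 1.01 times the CK ratio in roots. Root against shoot, the ratio was 0.780 times as large under LP and 4.23 times as large under CK. With the most abundant sequence of each family alone, miR156g over miR172d, the ratios were 649 in root LP, 716 in root CK, 596 in shoot LP and 112 in shoot CK, so the order of root LP, root CK and shoot LP differs from that of the sums while shoot CK stays lowest.

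**Figure D2:**
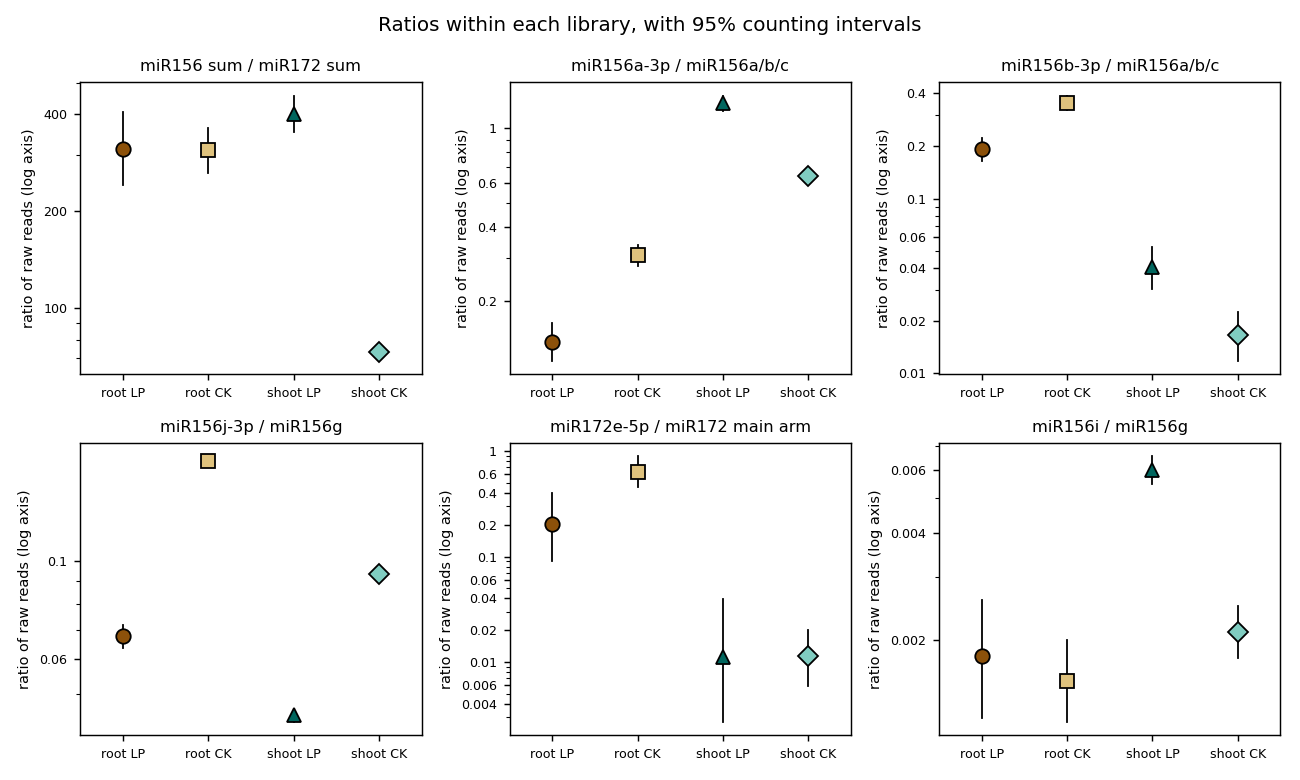
Ratios of raw reads within each library (vertical, log axis, with 95% counting intervals; 1 point per library) for both family sums, for sequences of the opposite arm over guide forms, which need not share a hairpin, and for miR156i over miR156g. The miR156 to miR172 ratio is 73.0 in shoot CK and 309 to 400.5 in the other libraries.

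The comparison of shoots asked how the above-ground organs respond to the lack of phosphate, and there the guide forms of miR172 were lower in LP and miR156 stood higher. miR172d had 110.0 in shoot LP against 309 in shoot CK, 2.81-fold (2.33 to 3.40) lower. miR172a had 26.9 in shoot LP and 137 in shoot CK, 5.09-fold (3.52 to 7.35) lower. miR172f had 38.1 in shoot LP and 90.8 in shoot CK, 2.38-fold (1.72 to 3.34) lower. The log2 ratio of miR172f was -1.23, which TMM scaling brought to -0.84, under the call. miR172d held 61.6% of the family's reads in shoot LP and 56.3% in shoot CK. miR172b/c, at 1.56 in shoot LP and 5.43 in shoot CK, and miR172e-5p, at 1.95 and 6.20, stayed under a value of 10 and received no call. The miR172 sum was 3.07-fold (2.66 to 3.56) lower in LP, without miR172a 2.71-fold (2.32 to 3.20) lower, and without miR172d 3.49-fold (2.77 to 4.43) lower, so the difference does not rest on either alone.

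The miR156 sum in shoots had a fold of 1.79 (1.77 to 1.80), under the 2-fold line. Its log2 ratio of 0.84 reached 1.23 with TMM scaling and 1.00 with the median of ratios. miR156g, which represses SPL genes with the rest of the family, had 65510 in shoot LP and 34456 in shoot CK, a fold of 1.90 (1.88 to 1.92). Its log2 ratio of 0.93 reached 1.32 with TMM and 1.09 with the median of ratios. It held 91.6% of the family's reads in shoot LP and 86.1% in shoot CK. The rest of the family together stood at 5990 in shoot LP and 5549 in shoot CK, a fold of 1.08 (1.05 to 1.11), so nearly all of the difference in the sum lies in miR156g. miR156a/b/c had 1057 in shoot LP and 1285 in shoot CK, at -0.28 on the log2 scale and at 0.11 once TMM was used. The passenger miR156j-3p had 2931 in shoot LP and 3222 in shoot CK, a log2 ratio of -0.14 that TMM turned to 0.26 and the median of ratios to 0.03. miR156a-3p had 1335 in shoot LP and 825 in shoot CK, a fold of 1.62 (1.51 to 1.73), and its log2 ratio of 0.69 reached 1.09 with TMM.

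miR156i, the form with 2 more bases at its 3′ end, was the member farthest up in shoots. It had 393 in shoot LP against 72.6 in shoot CK, 5.42-fold (4.47 to 6.55) higher. Per 10000 reads of miR156g there were 60.02 reads of miR156i in shoot LP and 21.1 in shoot CK, against 18.1 in root LP and 15.4 in root CK. Relative to miR156g this longer form was therefore highest in shoot LP, at 2.85 times the shoot CK ratio. Its 2 extra bases, ca, differ from the ag that follows miR156g in the precursor printed below. Whether miR156i is cut from the same hairpin as miR156g was not tested. miR156k had 23.4 in shoot LP and 7.75 in shoot CK, 3.02-fold (1.57 to 6.04) higher, from 30 and 15 reads. miR156f had 27.7 in shoot LP and 10.6 in shoot CK, 2.61-fold (1.47 to 4.67) higher. miR156b-3p, at 42.9 in shoot LP and 21.2 in shoot CK, had a log2 ratio of 0.99, just under the call, and miR156e, miR156l and miR156d had 0.81, 0.86 and 0.21. TMM brought miR156b-3p, miR156e and miR156l past the call, at 1.37, 1.20 and 1.24, and the median of ratios brought miR156b-3p to 1.14 and miR156l to 1.02. In all, 3 of the 14 members with a value of at least 10 were called higher and 3 lower in shoots. Of the 140 sequences of the table with such a value, 17.1% were called higher and 27.9% lower, 45.0% in all. The median log2 ratio was 0.86 over the 11 miR156 sequences and -0.23 over the 140 sequences. Several of the 11 are 1-base variants of miR156g and may hold misread copies of it, which was not tested. They are therefore not independent measures, here or in roots.

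Roots gave another picture, with both family sums close to level and the passenger strands of miR156 below their CK values. The miR156 sum had a fold of 1.05 (1.03 to 1.07) and the miR172 sum a fold of 1.04 (0.759 to 1.41), whose interval includes equality. miR156g had 43726 in root LP and 38754 in root CK, with a fold of 1.13 (1.11 to 1.15). miR156a/b/c had 2922 in root LP and 1812 in root CK, with a fold of 1.61 (1.49 to 1.74). The passenger miR156j-3p went the other way, 2.21-fold (2.07 to 2.36) lower at 2953 in root LP and 6529 in root CK. Its log2 ratio was -1.14, and -0.96 when scaled to the table total. The log2 ratio was -0.48 for miR156a-3p, at 399.9 in root LP and 557 in root CK. It was -0.19 for miR156b-3p, at 562 in root LP and 643 in root CK, with an interval of the fold from 0.744 to 1.03 that includes equality. The 3 passenger forms together were at 3916 in root LP and 7729 in root CK, with a fold of 0.507 (0.479 to 0.536), while the guide forms together were at 46990 and 40812, a fold of 1.15 (1.13 to 1.17).

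The miR172 sequences in roots rest on far fewer reads. miR172e-5p, the passenger form, was 2.23-fold (1.14 to 4.92) lower, at 27.3 in root LP (10 reads) and 60.8 in root CK (59.5 reads), and the table total brought its log2 ratio of -1.13 to -0.96. The guide forms together had 136 in root LP and 96.2 in root CK, with a fold of 1.41 (0.988 to 2.02), which includes equality. Among them the log2 ratio was 0.31 for miR172d, at 67.3 in root LP and 54.2 in root CK. It was 0.64 for miR172f, at 53.2 in root LP and 33.9 in root CK. miR172b/c, at 15.01 in root LP and 6.13 in root CK, passed the call at a fold of 2.45 (0.714 to 9.99), from 5.5 and 6 reads, and its interval includes equality. miR172a was listed at 0 in root LP and had 2 reads in root CK.

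The low variants of miR156g in roots were miR156f, 3.19-fold (1.48 to 7.43) higher with 42.3 in root LP against 13.3 in root CK, and the uncalled miR156e, miR156d, miR156i, miR156k and miR156l, with log2 ratios between -0.49 and 0.86, where the table total turned the -0.07 of miR156l to 0.11 and brought the 0.86 of miR156d to 1.05. In all, 2 of the 15 members with a value of at least 10 were called higher and 2 lower in roots. Of the 143 sequences with such a value, 23.8% were called higher and 18.2% lower, 42.0% in all. The median log2 ratio was 0.17 over the 11 miR156 sequences and 0.07 over the 143 sequences. The shoot and root comparisons use different libraries, and with 1 library per treatment their difference could not be tested.

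**Figure D3:**
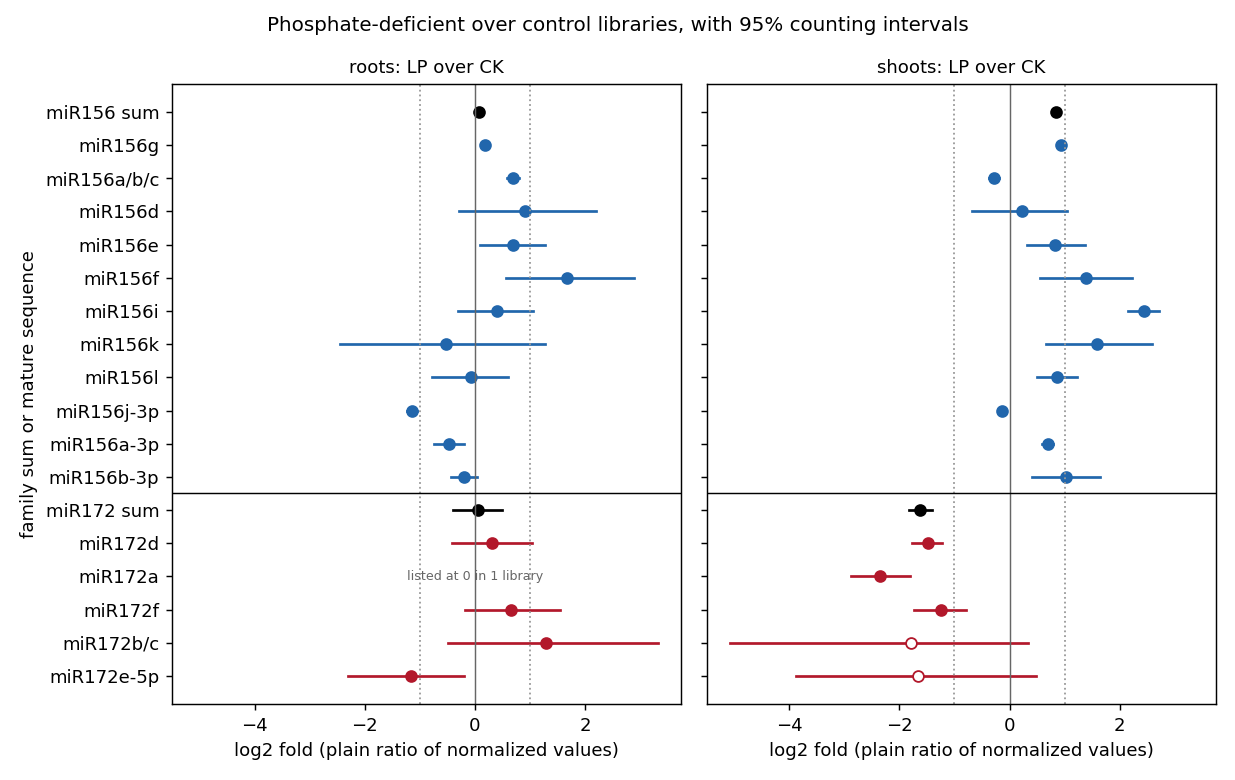
Log2 of the plain fold of LP over CK (horizontal) with 95% counting intervals in roots (left) and shoots (right) for both sums (black), miR156 sequences (blue) and miR172 sequences (red); open points stay under a value of 10 and dotted lines mark 2-fold. In shoots miR172d, miR172a and miR172f lie left of -1 and miR156i lies right of 2, and in roots miR156j-3p lies at -1.14.

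The forms of the opposite arm were set against guide forms within each library, a ratio that is free of the scaling. The hairpin of miR156j-3p names no transcript, and the miR156g precursor printed below does not contain the miR156j-3p sequence. It was set against miR156g only as the most abundant guide, so this ratio does not compare both arms of that precursor. For each 100 reads of miR156g there were 6.75 reads of miR156j-3p in root LP (6.35 to 7.18) and 16.8 in root CK (16.4 to 17.3). There were 4.47 in shoot LP (4.33 to 4.62) and 9.35 in shoot CK (9.11 to 9.60). The ratio was thus lower under LP in both tissues, 0.401 times the CK ratio in roots and 0.478 times in shoots. For miR172e-5p per 100 reads of the miR172 guides, there were 20.1 reads in root LP (9.04 to 39.9) and 63.2 in root CK (45.4 to 89.2), against 1.10 in shoot LP (0.272 to 3.93) and 1.14 in shoot CK (0.589 to 2.01). Both root libraries lie above both shoot libraries, and a change under LP in shoots was not detectable from 2.5 and 12 reads of miR172e-5p.

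The table places the guide miR156a/b/c on 3 transcripts of the authors' assembly, and 2 of these hairpins have passenger strands that can be told apart. They are shown because the reads of their passengers divide roots from shoots. Both are written 5′ to 3′ on the plus strand with guide and passenger in capitals, from positions 295 to 393 of TRINITY_DN25480_c1_g3 (miR156a) and 19 to 118 of TRINITY_DN26252_c0_g1 (miR156b).
miR156a precursor: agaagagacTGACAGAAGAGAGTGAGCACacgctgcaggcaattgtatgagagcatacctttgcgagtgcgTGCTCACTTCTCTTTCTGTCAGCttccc
miR156b precursor: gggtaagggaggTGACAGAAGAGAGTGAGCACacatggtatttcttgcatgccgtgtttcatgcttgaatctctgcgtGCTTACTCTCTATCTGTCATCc
The table gives the miR156a-3p sequence for the hairpin of miR156c as well, although that precursor differs from it by C23A, counted from the 5′ end of miR156a-3p, so its reads may belong to either. miR156b-3p had 206 reads per 146.5 reads of miR156a-3p in root LP, a ratio of 1.41 (1.13 to 1.74), and 629 per 545 in root CK, a ratio of 1.15 (1.03 to 1.30). In shoots it had 55 reads per 1711 in shoot LP, a ratio of 0.0321 (0.0241 to 0.0420), and 41 per 1597 in shoot CK, a ratio of 0.0257 (0.0184 to 0.0350). Root against shoot, the ratio was 43.7 times as large under LP and 45.0 times under CK, whereas LP against CK it was 1.22 times in roots and 1.25 times in shoots. The balance of both passengers therefore separates roots from shoots, and it differed by 1.25 times or less between LP and CK. Set against the shared guide, miR156a-3p had 13.7 reads per 100 reads of miR156a/b/c in root LP (11.5 to 16.3) and 30.7 in root CK (27.9 to 33.9). In shoots it had 126 in shoot LP (118 to 136) and 64.2 in shoot CK (60.3 to 68.4), so by these values the passenger outnumbered its guide in shoot LP. The guide fills 3 rows and miR156a-3p fills 2, and each sequence was counted once. Whether a listed value is a share of reads split over rows was not tested. If it is, these ratios, and that of miR156b-3p over miR156a-3p, would change. The guide could then outnumber miR156a-3p in shoot LP, and miR156a-3p could outnumber miR156b-3p in roots. The guide is shared by 3 hairpins, and its reads cannot be divided among them.

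The comparison of roots with shoots asked where each form is held under either supply. The miR156 member farthest apart was miR156b-3p, at 562 in root LP against 42.9 in shoot LP, 13.1-fold (9.69 to 18.0) higher, and at 643 in root CK against 21.2 in shoot CK, 30.3-fold (22.1 to 42.7) higher. miR172e-5p was higher in roots too, 14.0-fold (3.003 to 65.9) under LP from 10 and 2.5 reads, and 9.81-fold (5.27 to 20.2) under CK. miR156a/b/c was 2.76-fold (2.55 to 2.996) higher in root LP than in shoot LP, and stood at a fold of 1.41 (1.33 to 1.499) in root CK over shoot CK, where the table total brought its log2 ratio of 0.50 to 1.23. miR156e was called higher in roots under LP at 2.09-fold (1.38 to 3.10) and under CK at 2.32-fold (1.61 to 3.35), although TMM brought the LP log2 ratio of 1.05 to 0.73. miR156j-3p was 2.03-fold (1.96 to 2.10) higher in root CK than in shoot CK, and had a log2 ratio of 0.01 in root LP over shoot LP, which TMM turned to -0.32 and the table total brought to 1.03, past 2-fold.

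Of the 4 miR172 guides, 3 were called lower in roots under CK. miR172d had 54.2 in root CK and 309 in shoot CK, 5.70-fold (4.30 to 7.71) lower, and miR172f was 2.68-fold (1.85 to 4.04) lower, a log2 ratio of -1.40 that the table total brought to -0.67. miR172a had 2.04 in root CK and 137 in shoot CK, from 2 and 265 reads, a ratio of 0.0149 (0.00180 to 0.0544). Under LP, miR172a was listed at 0 in root LP and had 26.9 in shoot LP, so its call as lower rests on that 0 and on the 1 added to both values. miR172d had a log2 ratio of -0.70 in root LP over shoot LP, which the table total turned to 0.31 and TMM brought to -1.02, past 2-fold. miR172f had one of 0.47, which the table total brought to 1.47, past 2-fold, and TMM to 0.15. miR172b/c was called higher under LP at 15.01 in root LP against 1.56 in shoot LP, from 5.5 and 2 reads, a ratio of 9.62 (1.88 to 106). The miR172 sum was 3.49-fold (2.94 to 4.15) lower in root CK than in shoot CK, and stood at 0.912 (0.678 to 1.22) in root LP over shoot LP, a log2 ratio of -0.13 that the table total turned to 0.88.

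The log2 ratio of the miR156 sum was -0.49 in root LP over shoot LP, which the table total turned to 0.53. It was 0.28 in root CK over shoot CK, which the table total brought to 1.01, past 2-fold. miR156g, which holds most of the reads in that sum, had -0.58 under LP, turned to 0.44 by the table total, and 0.17 under CK. Without miR156g the sum gave 0.26 under LP and 0.82 under CK. miR156i was 4.97-fold (3.42 to 7.49) lower in root LP than in shoot LP, and miR156a-3p was 3.34-fold (2.81 to 3.96) lower, a log2 ratio of -1.74 that the table total brought to -0.72. miR156k was called lower under LP at 9.55 in root LP against 23.4 in shoot LP, with an interval of the fold from 0.119 to 1.32 that includes equality, and the table total brought its log2 ratio of -1.21 to -0.25. In root CK over shoot CK miR156a-3p had a log2 ratio of -0.57, which the table total turned to 0.17. Under LP all 16 members had a value of at least 10, and 5 were called higher in roots and 4 lower. Of the 158 sequences with such a value, 34.2% were higher and 37.3% lower, 71.5% in all. Under CK 4 of the 15 members with such a value were called higher and 3 lower, where 26.1% of 142 sequences were higher and 37.3% lower, 63.4% in all.

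**Figure D4:**
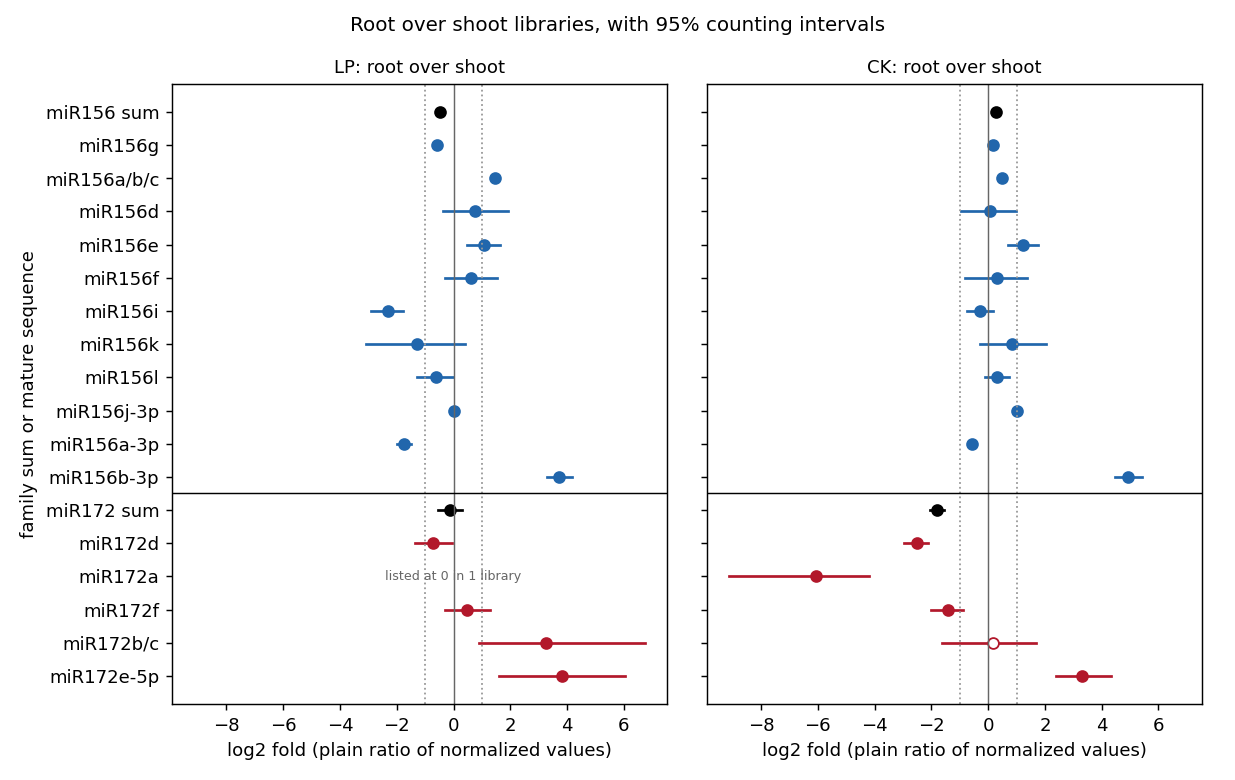
Log2 of the plain fold of root over shoot (horizontal) with 95% counting intervals under LP (left) and CK (right), drawn as in the plot of LP over CK. miR156b-3p and miR172e-5p lie right of 3 in both panels, and the miR172 sum lies near -0.13 under LP and at -1.80 under CK.

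Another scaling shifts the plain log2 folds of a comparison by 1 amount, and the ratios taken after adding 1 by nearly that amount except at low values. Relative to the authors' constants, the table total shifted root LP over root CK by 0.18 and shoot LP over shoot CK by -0.11, TMM shifted shoot LP over shoot CK by 0.39 and the median of ratios by 0.16. Root over shoot shifted by 1.02 under LP and 0.73 under CK with the table total, by -0.33 and 0.11 with TMM, and by 0.05 and 0.25 with the median of ratios. The calls over all sequences moved with these shifts. In shoots they were 24 higher and 39 lower by the authors' constants, 47 and 22 by TMM, and 33 and 31 by the median of ratios. For root over shoot under LP they were 54 and 59 by the authors' constants, 84 and 36 by the table total, and 43 and 72 by TMM, and under CK they were 37 and 53 by the authors' constants and 55 and 37 by the table total. Of 26 ratios of single members at 2-fold or more, 19 stayed there under every one of the 3 scalings, and of the 34 under 2-fold, 14 reached it under at least 1 of them.

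The low variants miR156d, miR156e, miR156f and miR156l each differ from miR156g by 1 base. Per 10000 reads of miR156g, miR156l had 16.2 in root LP, 19.2 in root CK, 16.7 in shoot LP and 17.4 in shoot CK, nearly the same in every library. miR156e had 25.6 in root LP, 17.9 in root CK, 8.16 in shoot LP and 8.70 in shoot CK, so its share was higher in both root libraries. miR156d, miR156f and miR156k lay between 2.18 and 9.68. How many of these reads are copies of miR156g with a misread base was not tested.

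Placement on transcripts separated the members as well. Of the 21 rows, 15 name a transcript, 8 on its plus and 7 on its minus strand. On the plus strand the mature sequence was found without a mismatch in 6 of 8 placed windows, and on the minus strand in 0 of 7. Some windows were short, with a weak predicted folding free energy. These had 34 nt and -2.7 for miR156i, 46 nt and -4.4 for miR156d, and 44 nt and -7.2 for miR156e. For 1 of 2 miR172b/c windows they were 42 nt and -10.4. The other placed windows had 99 to 245 nt and -43.2 to -73.6. The deposited folding free energy index was 0.2 to 0.5 in the short windows. It was 0.6 in the long windows of miR156f, miR172a and miR172b/c, 0.9 for miR156g, and up to 1.1 in the rest. Whether any of these windows, short or long, forms a miRNA hairpin was not tested. The precursor of miR156g, at positions 74 to 187 of TRINITY_DN21657_c0_g1, holds its mature sequence, shown in capitals, without a mismatch.
miR156g precursor: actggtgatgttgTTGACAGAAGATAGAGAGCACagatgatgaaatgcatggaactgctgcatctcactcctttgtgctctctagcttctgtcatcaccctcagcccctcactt
All 3 placed miR172 rows lie on minus strands and carry the same difference, T7C, with the mature base first and positions counted from the mature 5′ end. It is shown in capitals for miR172a and for its placed window, on the minus strand of TRINITY_DN23443_c1_g2.
miR172a: ggaatcTtgatgatgctgcag
miR172a window: ggaatcCtgatgatgctgcag
These transcripts carry no annotation here, so the positions do not show where the miR172 reads were made. miR172d, miR172f and miR172e-5p name no transcript.

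Among other families linked to phase change and flowering, 11 were listed, and 8 had a value of at least 10 in 1 library. In shoots 4 of the 8 were called lower in LP and none higher, namely miR159, which targets GAMYB genes, miR319, which targets TCP genes, miR390, which triggers trans-acting siRNAs that act on auxin response factors, and miR394, known in Arabidopsis to repress the F-box gene LCR in the meristem. Their log2 ratios were -1.21, -2.00, -1.16 and -1.88, and the list's median was -0.91, against -0.63 over the 42 families with a value of at least 10, of which 21.4% were higher and 33.3% lower. TMM left 2 of these 4 calls, with miR159 at -0.81 and miR390 at -0.76, and the median of ratios left 3, with miR390 at -0.99. In roots miR319 and miR164, which targets NAC genes, were called lower at -1.17 and -1.18 and none was higher, with a list median of -0.63 against 0.14 over 48 families, of which 22.9% were higher and 8.33% lower. With the table total both lay just under the call, at -0.99. miR171 and miR166 had log2 ratios between -0.64 and -0.31 in both tissues. miR396, which targets growth-regulating factors, had 0.16 in roots and -0.25 in shoots, which TMM turned to 0.15. The rest were miR159 at 0.57, miR390 at -0.76 and miR394 at -0.84 in roots, and miR164 at -0.66 in shoots. Over the 4 libraries the families whose centred log2 profile lay closest to that of miR172, by Euclidean distance among 34 other families with a value of at least 100, were miR390 at 0.661, miR169 at 0.875 and miR171 at 0.911. Closest to miR156 were miR396 at 0.824, miR6478 at 0.843 and miR399 at 0.948, and miR156 and miR172 were 1.93 apart. Closest does not mean the same direction here. In shoots miR396 had 24905 in LP and 29545 in CK, miR6478 had 2155 and 2429, and miR399 had 727 and 971. Each was thus lower in shoot LP, where the miR156 sum was higher, at 71499 against 40005.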

How the data were processed

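Small RNAs of 4 libraries were sequenced as 36-nt single reads on a HiSeq2500, as the labels' protocols state. The raw columns hold estimated counts (expected counts) of reads per mature sequence, as deposited by the authors and named raw per the file headers. The normalized columns hold a signal that the authors made from the raw columns, with constants of 2.73 for root LP, 1.02 for root CK, 0.780 for shoot LP and 0.517 for shoot CK. The deposited table also gives each mature length and the hairpin length, and predicted folding measures. Of these measures only the folding free energy of placed windows and its index are given here, and no other result rests on them. The aligner, counter, filters and the choice of constants: not given in the sources used here.

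Rows that share a mature sequence were counted once, and 2 blank lines were left out. Family sums add all distinct sequences of a family. Guide forms are the names without 3p or 5p. A log2 ratio is that of both values plus 1, and a fold is the plain ratio of normalized values with exact conditional intervals (Clopper-Pearson, 95%) from raw reads rounded to whole numbers. Shares have exact binomial intervals. Exactly 1 read was listed in 5 of 705 values above 0, so a value of 0 may hide a read, and no limit or fold is given for it. The call of miR172a in root LP against shoot LP, which rests on such a 0, is kept in the count. The scalings tried were the table total on unrounded values, and TMM from edgeR 4.0.16 and the median of ratios from DESeq2 1.42.0 on values rounded to whole numbers. Python 3.11.15 with scipy 1.17.1 was used, and the interval code was tested on simulated data. The sequences named in full have a value of at least 100 in 1 library or a call in 1 comparison, and the others are given by value or range. The scalings of the listed families were added after seeing the data. The members, the lists of families and this naming rule were chosen with earlier results of these data known.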

Additional observations from a re-analysis of the deposited data

Results flagged for a closer look

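Of the 16 sequences and both family sums, 2 sequences had LP ratios in opposite directions in roots and shoots with counting intervals that excluded equality in both tissues. miR156a/b/c had a log2 ratio of 0.69 in roots and -0.28 in shoots, and TMM scaling turned the shoot value to 0.11. miR156a-3p, listed for the opposite arm of the miR156a and miR156c hairpins, had a log2 ratio of -0.48 in roots and 0.69 in shoots, and kept both signs under the 3 scalings. The difference between the tissues was not tested, since each direction rests on 1 library per treatment.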

How the results depend on the processing

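No paired analysis was possible because each group has 1 library, and for the same reason no library could be left out. Of 152 alternatives for the sums, ratios and counts, 88 moved within their counting interval or within 1.5 times the count, and 64 moved farther; the cause was not tested.
For the miR156 sum, the log2 ratio of 0.07 in root LP over root CK became 0.25 with the table total, 0.019 with TMM, 0.034 with the median of ratios, 0.12 with all rows as deposited, 0.17 with miR156g alone and 0.20 with guide forms. The 0.84 of shoot LP over shoot CK became 0.73, 1.23, 1.00, 0.79, 0.93 and 0.90 in the same order. The -0.49 of root LP over shoot LP became 0.53, -0.82, -0.44, -0.39, -0.58 and -0.52. The 0.28 of root CK over shoot CK became 1.01, 0.39 and 0.53 with the 3 scalings, 0.17 with miR156g alone and 0.18 with guide forms. Without miR156g, an alternative chosen after seeing the data, these comparisons gave -0.45, 0.11, 0.26 and 0.82.
For the miR172 sum, shoot LP over shoot CK at -1.61 became -1.22 with TMM. Root LP over shoot LP at -0.13 became 0.88 with the table total, -0.70 with miR172d alone and 0.47 without it. Root CK over shoot CK at -1.80 became -1.06 with the table total, -1.55 with the median of ratios, -2.49 with miR172d alone, -2.48 with guide forms, -1.21 without miR172d and -1.40 without miR172a. Leaving out miR172d or miR172a was also chosen after seeing the data.
The miR156 to miR172 ratio with miR156g and miR172d alone was 649 in root LP, 716 in root CK, 596 in shoot LP and 112 in shoot CK. Guide forms gave 424 in root CK and 66.3 in shoot CK, and all rows gave 78.4 in shoot CK.
Members called higher in root LP over root CK numbered 0 at a minimum value of 100, 6 at 1.5-fold, 1 with a pseudocount of 10 and 4 over all rows, and those lower numbered 0 with the table total and 1 with either the minimum of 100 or the pseudocount of 10. Members called higher in shoot LP over shoot CK numbered 8 with TMM, 6 with the median of ratios, 1 at the minimum of 100, 8 at 1.5-fold and 1 with the pseudocount of 10, and those lower numbered 5 with no filter. In root LP over shoot LP 9 were higher and 2 lower with the table total, 3 and 2 at the minimum of 100, and 8 higher over all rows. In root CK over shoot CK 7 were higher with the table total and 2 at the minimum of 100. Of 300 alternatives for single sequences, 56 moved past their interval and none changed the sign of a called value. Depth limits miR172 in root LP most.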

Other observations

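miR535, a family related in sequence to miR156 that also targets SPL genes, was seen with 3 reads (a value of 8.19) in root LP and with 9 (a value of 9.20) in root CK, and was listed at 0 in both shoot libraries. No row was named miR157 or miR529.

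The rows miR156f and miR156h list the same 21-nt sequence on 2 transcripts. The miR156h window is placed on the minus strand of the transcript that carries miR156g on its plus strand, and the reverse complement of that window contains the whole 114-nt window of miR156g. The listed positions of both windows share only 11 positions. How positions on minus strands are counted is not stated, so no minus-strand position is given here.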
